A study of Mus musculus with 15 samples.

Results

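The genes described here carry the symbols of mitochondrial ribosomal proteins, and with the exception of Mrps36 their products are known as subunits of the mitochondrial ribosome. They were taken from a RefSeq gene table of the mouse build GRCm38 (mm10) as all protein-coding genes whose symbol is Mrpl or Mrps followed by a number and, in some cases, the letter a or b. This gave 77 of 21883 protein-coding genes on the autosomes and sex chromosomes, 49 named Mrpl and 28 named Mrps, spread over 17 chromosomes. A gene was counted as carrying a peak when any base of the peak lay inside the gene or within 2500 bp of either end of it. The symbol rule uses no measured value, and it leaves out subunit genes with other kinds of names, 6 of which are given further on.

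The data are CUT&Tag peak lists from HPC-7, a mouse cell line of early blood progenitor character that was derived from embryonic stem cells. In CUT&Tag an antibody brings a transposase to its target, and the DNA beside the target is cut, tagged and sequenced. SMC3, a subunit of the cohesin ring, was profiled in cells carrying an shRNA against the transcription factor YY1 (shYY1). The trimethylated histone H3K4me3, YY1 and SMC3 were profiled in control cells, which the titles call wild type and whose descriptions carry the name shLUC. Each of these 4 groups had 3 libraries, described as biological replicates, with about 150000 cells per reaction. Left out are the 3 IgG libraries of control cells. YY1 was not profiled in shYY1 cells among the lists used, which leaves the depth of the knockdown unmeasured, and the labels do not say whether the shYY1 cells are a single clone or name the promoter of the shRNA. The first SMC3 library of each arm alone names Abcam in its description.

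The mitochondrial ribosome translates the few messages of the mitochondrial genome, which encode core subunits of the respiratory chain and the ATP synthase. Its RNA comes from the mitochondrial genome, but every protein subunit is encoded in the nucleus, translated in the cytosol and imported. It has a large subunit, where peptide bonds are formed, and a small subunit, where the message is decoded. Some of its proteins have counterparts in bacterial ribosomes and others are found only in mitochondria. YY1 is a zinc-finger factor that binds DNA with the core letters ATGG, and mouse and human work has linked it to nuclear genes for mitochondrial proteins. Nuclear respiratory factor 1 (NRF1) and the ETS-family factor GABP are the other factors best known at such genes.

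The promoter sequences of 5 of these genes are shown first, because the peak data below turn on how YY1 and SMC3 lie at them. They are RefSeq promoter windows of GRCm38.p6, from 250 bases before the annotated start to 50 bases after it, written in the direction of the gene. Such a window was at hand for 68 of the 77 genes. Capitals mark each match to a YY1 motif, AANATGGC, on either strand. Mrpl18 and Mrpl47, subunits of the large particle, had peaks of H3K4me3, YY1 and SMC3 in all 12 libraries. Mrps7, of the small particle, had YY1 in all 3 libraries and SMC3 in 0 of 6. Mrpl10, part of the base of the stalk on which translation factors dock, had no YY1 peak in any library. Its window has no match to AANATGGC, though it holds the shorter letters ATGGC after the start.
Mrpl18 (chr17:12916042-12916341, strand minus): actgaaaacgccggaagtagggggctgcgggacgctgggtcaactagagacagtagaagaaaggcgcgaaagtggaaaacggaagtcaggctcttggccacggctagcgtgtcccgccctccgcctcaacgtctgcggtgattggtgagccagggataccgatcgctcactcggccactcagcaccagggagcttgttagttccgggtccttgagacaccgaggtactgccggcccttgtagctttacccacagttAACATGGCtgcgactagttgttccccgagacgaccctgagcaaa
Mrpl47 (chr3:32736706-32737005, strand minus): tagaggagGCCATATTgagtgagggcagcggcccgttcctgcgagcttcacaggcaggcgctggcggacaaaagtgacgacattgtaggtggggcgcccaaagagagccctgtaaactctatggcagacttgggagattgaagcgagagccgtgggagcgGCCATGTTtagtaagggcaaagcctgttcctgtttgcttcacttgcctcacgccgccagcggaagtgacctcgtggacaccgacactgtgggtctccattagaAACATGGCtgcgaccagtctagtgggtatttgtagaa
Mrps7 (chr11:115603890-115604189, strand plus): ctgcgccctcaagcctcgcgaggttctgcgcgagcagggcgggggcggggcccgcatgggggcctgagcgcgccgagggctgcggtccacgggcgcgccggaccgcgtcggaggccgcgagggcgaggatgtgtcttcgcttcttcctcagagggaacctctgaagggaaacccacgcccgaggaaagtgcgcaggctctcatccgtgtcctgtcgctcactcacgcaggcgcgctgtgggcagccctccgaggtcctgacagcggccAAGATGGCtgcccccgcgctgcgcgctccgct
Mrpl10 (chr11:97041332-97041631, strand plus): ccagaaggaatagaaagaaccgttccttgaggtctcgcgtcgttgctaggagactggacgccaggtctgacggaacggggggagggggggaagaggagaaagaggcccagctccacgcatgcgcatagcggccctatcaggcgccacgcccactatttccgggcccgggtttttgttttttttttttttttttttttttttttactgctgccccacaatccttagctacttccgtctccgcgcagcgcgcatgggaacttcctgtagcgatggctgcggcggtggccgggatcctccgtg

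Mrpl17, a large-subunit protein with a bacterial counterpart, was also called in all 12 libraries, and its window held no match to the YY1 motif. It is shown for its match to an NRF1 motif, GCGCA and GCGC on either side of any base, which the capitals mark.
Mrpl17 (chr7:105811038-105811337, strand minus): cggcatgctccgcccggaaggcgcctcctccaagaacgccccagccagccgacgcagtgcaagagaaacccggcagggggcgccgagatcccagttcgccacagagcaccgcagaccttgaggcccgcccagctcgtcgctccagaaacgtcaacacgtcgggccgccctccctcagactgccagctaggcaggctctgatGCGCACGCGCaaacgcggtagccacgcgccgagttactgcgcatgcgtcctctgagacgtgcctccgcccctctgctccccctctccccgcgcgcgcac

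The 4 sets of lists differed in length, and this bears on every count below. H3K4me3 lists held between 16763 and 17895 peaks. YY1 lists held 8469, 10699 and 3750 peaks. The shYY1 SMC3 lists held 2631, 3213 and 3032 peaks, against 4511, 4595 and 2061 in control cells, so the third YY1 library and the third control SMC3 library were the shortest of their groups. The lists hold positions only, without peak heights or reads. Sequencing depth is therefore unknown, and weaker occupancy cannot be told apart from shallower sequencing. The cells' early blood identity was checked with 10 progenitor genes, among them Kit, Gata2 and Runx1, and all 10 had H3K4me3 in at least 2 libraries. Of 8 markers of embryonic stem, liver, neural and muscle cells, 0 did, and 7 had no H3K4me3 peak in any library.

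All 77 mitochondrial ribosomal protein genes carried the active-promoter mark H3K4me3 in all 3 libraries. Over all protein-coding genes, 53.2% had it in at least 2 of 3 libraries. At 72 of the 77 the mark lay within 1000 bp of a gene end. The longest H3K4me3 peak at a gene ranged from 496 to 2307 bp over genes and libraries. The shortest belonged to Mrpl33, a large-subunit protein, with 519, 496 and 533 bp. The longest belonged to Mrps34, a small-subunit protein found only in mitochondria, with 2251, 2280 and 2307 bp. The median of the longest peak over the 77 genes was 1137, 987 and 981 bp in the 3 libraries, against 1113, 976 and 1009 bp over the 11642 genes with H3K4me3. By the longest peak in the window, which can lie nearer to a neighbouring gene, these genes were close to genes with H3K4me3 as a whole. Those 11642 genes are the background used below.

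**Figure D1:**
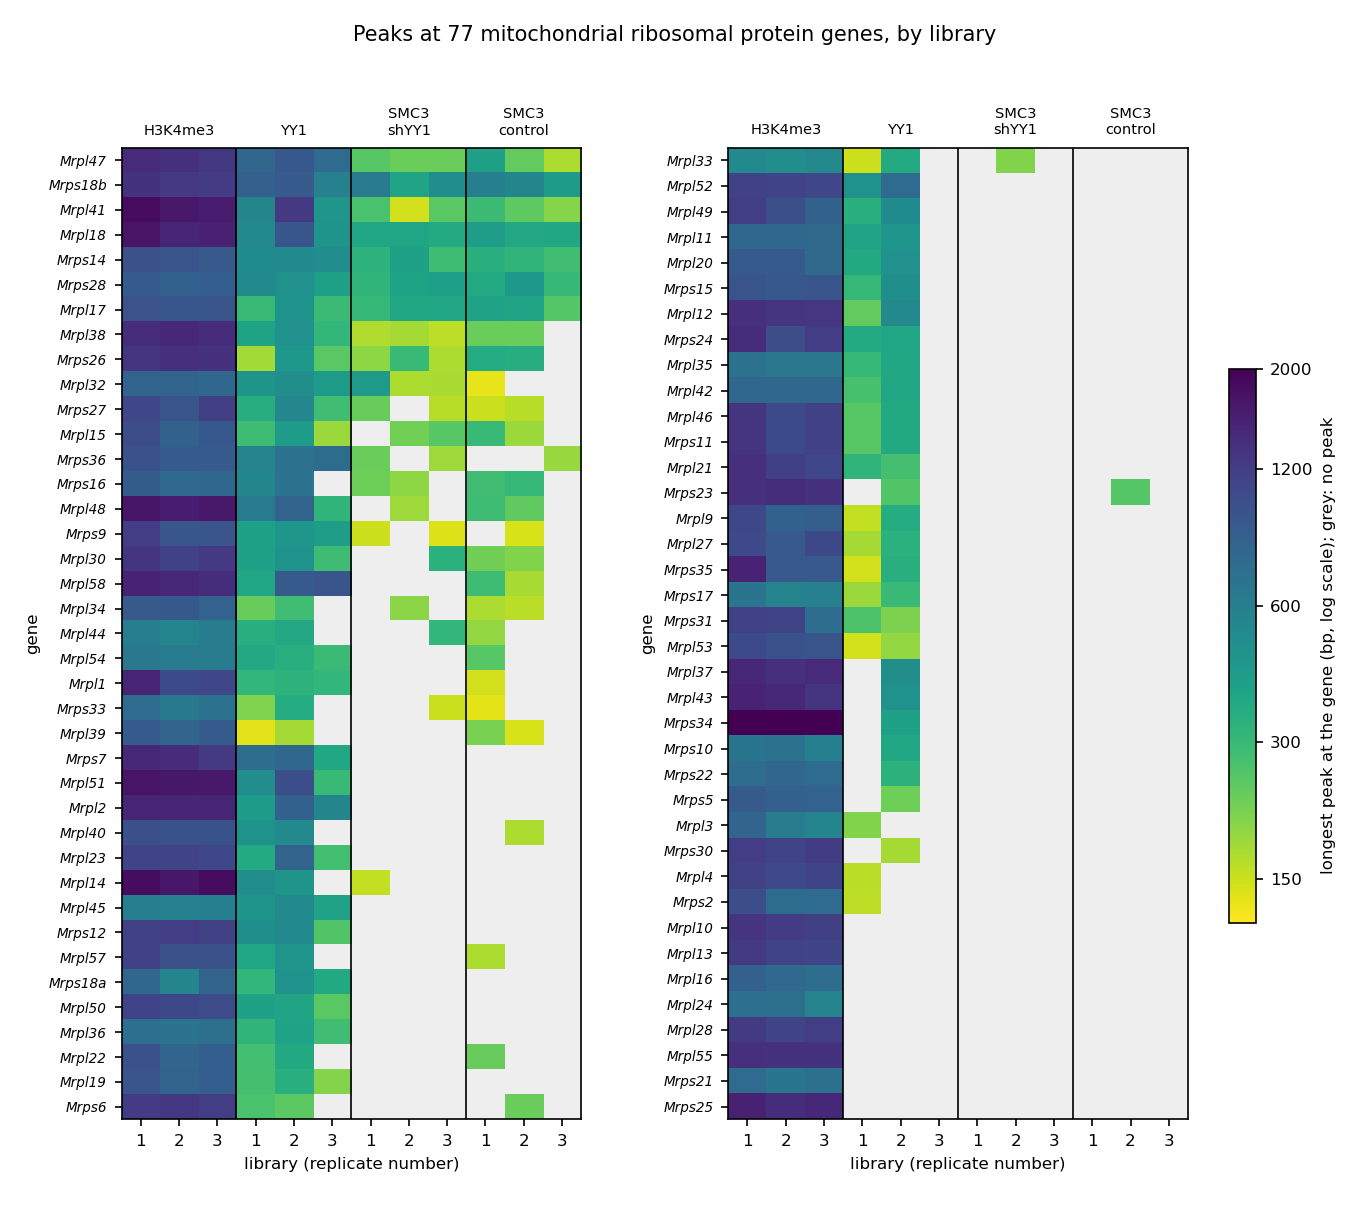
Longest peak (bp, log colour scale) at each of the 77 genes (rows) in each of the 12 libraries (columns, by target, cells and replicate number); grey means no peak. H3K4me3 fills every cell, YY1 fills 61, 66 and 29 cells of its 3 columns, and SMC3 is called at 31 genes in any of its 6 libraries.

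YY1 was called at most of these genes. A YY1 peak was present at 61, 66 and 29 of the 77 genes in the 3 libraries, which is 79.2%, 85.7% and 37.7%, against 67.1%, 75.1% and 34.3% of genes with H3K4me3. The share was higher at the mitochondrial ribosomal protein genes in each of the 3 libraries, and the third library was low for both sets. In at least 2 of 3 libraries 58 genes (75.3%) had YY1, where 64.8% of genes with H3K4me3 and 34.6% of all protein-coding genes did. All 58 had it in libraries 1 and 2. The lead over the background is given as a description, with no test, since genes are not replicates and neighbouring genes can share a peak.

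The genes divided by the number of YY1 libraries into 29 with 3, 29 with 2, 11 with 1 and 8 with 0. For the background, 33.6% of genes with H3K4me3 had YY1 in 3 of 3 libraries and 21.9% in 0 of 3. Thus 37.7% of the mitochondrial ribosomal protein genes had YY1 in all 3 libraries, a share near the background, and 10.4% had it in none. The 8 genes without YY1 were Mrpl10, Mrpl13, Mrpl16, Mrpl24, Mrpl28, Mrpl55, Mrps21 and Mrps25. Mrps25 encodes a mitochondria-specific protein and Mrpl55 was assigned to neither class of ancestry, while the others encode proteins with bacterial counterparts. The longest H3K4me3 peak at Mrpl13 measured 1246, 1125 and 1113 bp. At Mrpl10 the longest, of 1300, 1218 and 1177 bp, lay 1653 bp beyond the gene and nearer to Osbpl7. The H3K4me3 region at the start of Mrpl10, chr11:97041181-97042169, was shorter than these. At Mrpl24, which binds early during assembly of the bacterial large subunit, the H3K4me3 peaks measured 719, 706 and 569 bp.

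YY1 peaks were of much the same length at these genes as elsewhere. The median longest YY1 peak was 343, 454 and 318 bp in the 3 libraries, against 360, 443 and 338.5 bp over genes with H3K4me3, so it was higher in the second library and lower in the others. The longest YY1 peaks on average over the 3 libraries among genes called in all 12 libraries were at Mrpl47, near the exit of the peptide tunnel, with 789, 924 and 747 bp. Mrps18b, a small-subunit protein known from mitochondria, followed with 845, 887 and 585 bp, and Mrpl41 with 553, 1256 and 460 bp.

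**Figure D2:**
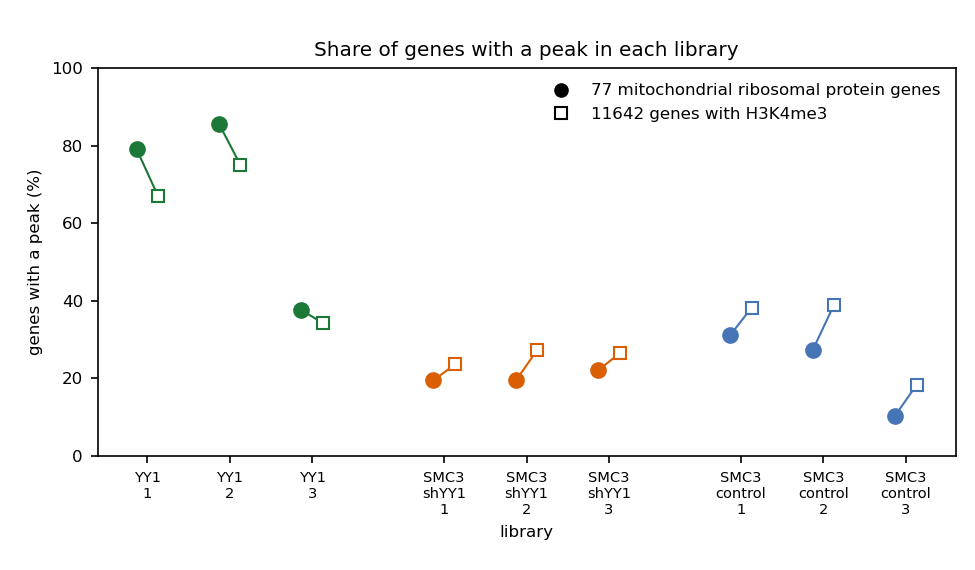
Percent of genes with a peak in each YY1 and SMC3 library, for the 77 mitochondrial ribosomal protein genes (filled circles) and the 11642 genes with H3K4me3 (open squares); a line joins the values of a library. The circles lie above the squares in the 3 YY1 libraries and below them in all 6 SMC3 libraries.

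SMC3 showed the reverse order. In shYY1 cells 15, 15 and 17 of the 77 genes had an SMC3 peak (19.5%, 19.5% and 22.1%), against 23.6%, 27.3% and 26.5% of genes with H3K4me3. In control cells 24, 21 and 8 genes had it (31.2%, 27.3% and 10.4%), against 38.3%, 39.0% and 18.3%. The share at the mitochondrial ribosomal protein genes was the lower in all 6 libraries. By the rule of at least 2 of 3 libraries, 15 genes (19.5%) had SMC3 in shYY1 cells, where 24.7% of genes with H3K4me3 and 13.2% of all protein-coding genes did. In control cells 17 genes (22.1%) had it, where 32.6% and 17.5% did. In all 3 libraries it was 10 genes (13%) in shYY1 cells, against 16.5%, and 7 genes (9.09%) in control cells, against 16.9%. In 0 of 3 libraries it was 55 genes (71.4%) in shYY1 cells, against 63.8%, and 48 genes (62.3%) in control cells, against 53.9%. Each of these counts put the mitochondrial ribosomal protein genes on the side of fewer SMC3 calls, which was not tested. SMC3 was present at 31 of the 77 genes in at least 1 of the 6 libraries and at 46 in 0 of 6.

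Every gene with SMC3 in at least 2 libraries of an arm also had YY1 in at least 2 libraries. Of the 58 genes with YY1, 15 (25.9%) had SMC3 in shYY1 cells and 17 (29.3%) in control cells, while over all genes with YY1 the shares were 37.7% in shYY1 cells and 49.4% in control cells. Of the 19 genes without YY1, 0 had SMC3 in either arm. Among genes with H3K4me3 and without YY1 it was also rare, at 0.609% in shYY1 cells and 1.63% in control cells, so the count of 0 is near the background. Among the 29 genes with YY1 in all 3 libraries, 14 (48.3%) had SMC3 in shYY1 cells and 14 (48.3%) in control cells, where all genes with YY1 in 3 libraries gave 57.6% and 69.7%. Among the 29 with YY1 in exactly 2 libraries, 1 (3.45%) had SMC3 in shYY1 cells and 3 (10.3%) in control cells, against 16.4% and 27.6%. The YY1 libraries come from control cells alone, so these pairs of calls set SMC3 in shYY1 cells against YY1 of another cell population.

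Peaks of all 3 targets in all 12 libraries were found at 7 of the 77 genes, or 9.09%, where 11.6% of genes with H3K4me3 had them. These were Mrpl17, Mrpl18, Mrpl41, Mrpl47, Mrps14, Mrps18b and Mrps28. Their products come from both particles. Mrpl18 belongs to the central protuberance of the large subunit, Mrps14 to the head of the small one, and Mrpl41 and Mrps18b are known from mitochondrial ribosomes alone.

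At Mrpl18 the longest SMC3 peak measured 383, 384 and 360 bp in shYY1 cells, against 419, 367 and 374 bp in control cells. SMC3 regions lay at chr17:12916082-12916465 in shYY1 cells and chr17:12916020-12916465 in control cells, inside the YY1 region chr17:12915895-12916839. They cover most of the Mrpl18 window printed above. In both arms their median summit lay 207 bp upstream of the Mrpl18 start and nearer to the divergent neighbour Tcp1, 31 bp away. At Mrpl47 the SMC3 peaks measured 249, 228 and 228 bp in shYY1 cells, against 398, 235 and 169 bp in control cells. They lay at chr3:32736760-32737050 in shYY1 cells and chr3:32736684-32737081 in control cells, within the YY1 region chr3:32736397-32737320. In both arms their median summit lay 166 bp upstream of the Mrpl47 start and 136 bp from the divergent neighbour Ndufb5. The groups overlapped at both genes, and the lone peak of 398 bp in the first control library set the higher control mean at Mrpl47.

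Mrps18b had the longest SMC3 peaks of the 7 genes by the mean of each arm, though in shYY1 library 2 those of Mrps14 and Mrps28 were longer. They measured 624, 387 and 501 bp in shYY1 cells, against 594, 552 and 427 bp in control cells, at chr17:35916310-35917019 in shYY1 cells and chr17:35916422-35917016 in control cells. Their summits lay nearer the divergent neighbour Ppp1r10, a regulatory subunit of protein phosphatase 1, than Mrps18b itself. Mrpl41 gave 269, 146 and 247 bp in shYY1 cells, against 290, 241 and 200 bp in control cells.

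Mrps14 gave 323, 398 and 288 bp in shYY1 cells, against 336, 317 and 283 bp in control cells. Mrps28 gave 319, 391 and 408 bp in shYY1 cells, against 359, 446 and 303 bp in control cells. Mrpl17 gave 306, 376 and 377 bp in shYY1 cells, against 397, 385 and 253 bp in control cells, and its SMC3 regions lay at chr7:105810976-105811358 in shYY1 cells and chr7:105810975-105811371 in control cells. At none of these 3 genes did the 3 shYY1 values stand apart from the 3 control values.

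**Figure D3:**
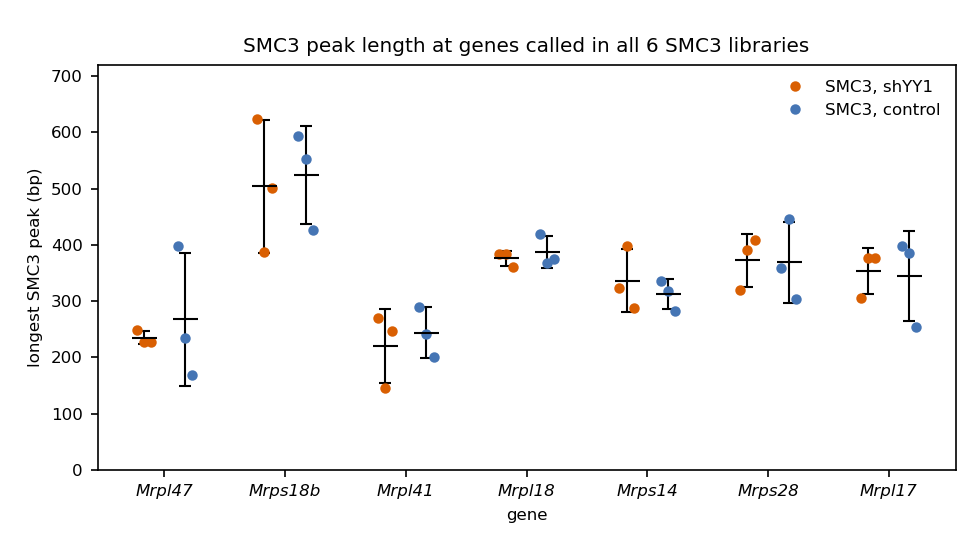
Longest SMC3 peak (bp) at the 7 genes called in all 6 SMC3 libraries, in shYY1 cells (left of each pair) and control cells (right); points are libraries, long bars the mean and whiskers the SD (n = 3). The points of the 2 arms overlap at all 7 genes, and the spread of Mrpl47 in control cells runs between 169 and 398 bp.

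The series' comparison between cells asks what YY1 knockdown does to SMC3. At the mitochondrial ribosomal protein genes the number of genes with an SMC3 peak per library was 15.7 ± 1.15 in shYY1 cells and 17.7 ± 8.50 in control cells (SD, n = 3 each), a difference of -2 genes that is smaller than the spread of the control libraries. Over all protein-coding genes it was 3032 ± 228 in shYY1 cells and 3743 ± 1382 in control cells. The difference of -710 genes did not pass a two-sided exact permutation test (p = 0.4), whose smallest possible p over 20 assignments is 0.1. The control mean rests on 2 long lists and 1 short list. Without the third control library the difference at the mitochondrial ribosomal protein genes was -6.83, and without the first it was 1.17.

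Gene by gene, calls were mixed. Of the 31 genes with SMC3 anywhere, 12 (38.7%) had it in fewer shYY1 than control libraries, 7 (22.6%) in more and 12 (38.7%) in equal numbers, where the shares over all 5773 genes with SMC3 were 42.9%, 15.8% and 41.3%. SMC3 in 3 of 3 control and 0 of 3 shYY1 libraries occurred at 0 of the 31, where 0.676% of genes with SMC3 in any library did so. The reverse pattern occurred at 0 of the 31, where the background was 0%. A looser count took genes whose number of libraries differed by at least 2 between the arms. Such a surplus of control libraries was seen at 2 genes, against a background of 10.3%, and a surplus of shYY1 libraries at 1 gene, against 1.11%. With 3 libraries an arm no single gene could pass 0.05. SMC3 reached 2 libraries in both arms at 12 of the 31 genes (38.7%), against 46.8% of genes with SMC3 in any library. It did so in shYY1 cells but not in control cells at 3 (9.68%), against 3.38%, namely Mrpl32, Mrps9 and Mrps36. It did so in control cells but not in shYY1 cells at 5 (16.1%), against 19.5%, namely Mrpl30, Mrpl34, Mrpl39, Mrpl48 and Mrpl58.

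Most of these 8 genes differed by a single library. Mrps9, a small-subunit protein with a bacterial counterpart, had SMC3 peaks of 148 and 139 bp in shYY1 libraries 1 and 3, against 143 bp in control library 2. Mrps36 had 227 and 181 bp in shYY1 libraries 1 and 3, against 185 bp in control library 3. Mrpl30, a large-subunit protein with a bacterial counterpart, had 331 bp in shYY1 library 3, against 220 and 204 bp in control libraries 1 and 2. Each of these genes had SMC3 in both arms. At Mrps9 and Mrpl30 the regions of the arms overlapped, and the rule of 2 libraries alone put the gene on a side. At Mrps36 they did not overlap, with chr13:100744416-100744658 in shYY1 cells and chr13:100744043-100744227 in control cells, so its lengths belong to different sites.

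Mrpl32, whose protein is trimmed by a mitochondrial protease after import before it joins the large subunit, was the gene with the surplus in shYY1 cells. Its SMC3 peaks measured 439, 170 and 172 bp in shYY1 cells, at chr13:14613024-14613462, against a single peak of 133 bp in the first control library, at chr13:14613046-14613178. Its YY1 peaks measured 466, 500 and 433 bp. The 2 SMC3 regions overlap. The control region lies between Mrpl32 and the start of Psma2, a proteasome subunit gene that runs the other way and starts 205 bp from Mrpl32, while the shYY1 region begins inside Mrpl32 and runs past the start of Psma2.

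Mrpl58 and Mrpl39 had the surplus in control cells. Mrpl58 encodes a release factor-like hydrolase that frees stalled chains and is also a fixed part of the large subunit. It had no SMC3 peak in shYY1 cells, against peaks of 288 and 174 bp in the first and second control libraries and none in the third. These lay at chr11:115413181-115413468, 679 bp outside the far end of the gene and 9601 bp from its annotated start, over a YY1 region called in 3 libraries. A separate YY1 region lay at the start of Mrpl58 in 2 libraries, and no SMC3 peak was called there in either arm. Mrpl39, a mitochondria-specific large-subunit protein, had no SMC3 peak in shYY1 cells, against 211 and 143 bp in the first and second control libraries, at chr16:84735231-84735446. Both calls were absent from the third control library as well as from all shYY1 libraries, and that library had the shortest list of the 6. Of the 17 genes with SMC3 in control libraries 1 and 2, 10 (58.8%) lacked it in library 3, where 46.6% of all such genes did.

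The length of SMC3 peaks gave the one graded comparison. It was made for the 7 genes with SMC3 in all 6 libraries, within 1497 such genes of the genome. Peaks longer in every shYY1 library than in every control library were seen at 0 of the 7, against 1.34% of the 1497, and peaks shorter in every shYY1 library at 0 of the 7, against 7.55%. The mean differences lay between -32.3 bp at Mrpl47 and 24.3 bp at Mrps14. The exact permutation p was 0.6 at Mrps14, 0.7 at Mrpl41, 0.8 at Mrpl18, Mrpl47 and Mrps18b, and 1 at Mrpl17 and Mrps28, with a Benjamini-Hochberg adjusted p of 1 at all 7 over the 1497 genes. A p that misses the threshold does not show that the lengths are alike.

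At other genes YY1 was called in all 3 libraries and SMC3 in no library of either arm. YY1 in 3 libraries with SMC3 in 0 of 6 was seen at 10 of 29 genes (34.5%), against 13.8% of all genes with YY1 in 3 libraries, a difference that was not tested. Ordered by mean YY1 peak length, the first 8 were Mrps7, Mrpl51, Mrpl2, Mrpl23, Mrpl45, Mrps12, Mrps18a and Mrpl50. Mrps7 had YY1 peaks of 734, 782 and 376 bp, a mean of 631 bp, while Mrps14, with SMC3 in all 6 libraries, had a mean of 507 bp. Mrpl51 gave 504, 1018 and 299 bp, and Mrpl2, next to the site of peptide-bond formation, 425, 838 and 551 bp. Mrpl23 and Mrpl45 lie around the tunnel exit, where Mrpl45 anchors the ribosome to the inner membrane, and Mrps12 lies in the decoding centre. The remaining 5 of the 8 had mean YY1 lengths between 344 and 486 bp, so a lack of SMC3 calls went with both long and short YY1 peaks.

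Calls were also compared between the 2 particles. In the large subunit 40 of 51 genes (78.4%) had YY1, 7 (13.7%) had SMC3 in shYY1 cells and 11 (21.6%) had SMC3 in control cells. In the small subunit 17 of 25 genes (68%) had YY1, 7 (28%) had SMC3 in shYY1 cells and 6 (24%) had SMC3 in control cells. Over genes with H3K4me3 the shares were 64.8% for YY1, 24.7% for SMC3 in shYY1 cells and 32.6% in control cells. SMC3 in shYY1 cells was thus above that share in the small subunit and below it in the large one. In control cells both particles were below it. These differences rest on few genes and were not tested. Mrps18a and Mrps30 are counted with the large subunit, where their products sit, and Mrps36 with neither, since its product is now known as a subunit of the oxoglutarate dehydrogenase complex. By ancestry, 33 of 44 genes with a bacterial counterpart (75%) and 23 of 30 mitochondria-specific genes (76.7%) had YY1. SMC3 was called at 9 of 44 (20.5%) and 5 of 30 (16.7%) in shYY1 cells, and at 9 of 44 (20.5%) and 8 of 30 (26.7%) in control cells. The YY1 shares of the 2 ancestries were within 2 percentage points of each other.

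Genes of mitochondrial translation outside the symbol rule were listed as well. Dap3, Ptcd3, Aurkaip1, Chchd1, Gadd45gip1 and Mrps18c encode further subunits under other names, and 6 of 6 had H3K4me3 and YY1, while 0 had SMC3 in at least 2 libraries of either arm. Of 13 mitochondrial translation factors, 13 had H3K4me3 and 8 had YY1 (61.5%), near the 64.8% of genes with H3K4me3. SMC3 was called at 3 of these in shYY1 cells and 2 in control cells, and Mtrf1l, a release factor, and Lrpprc, an RNA-binding protein that stabilises mitochondrial messages, were called in both. Of 22 assembly and ribosomal RNA factors, 22 had H3K4me3 and 13 had YY1 (59.1%), also near that share. SMC3 was called at 3 of them in shYY1 cells and 5 in control cells. Mterf3, Tfb1m and Mettl17 were called in both arms. For SMC3 the shares over genes with H3K4me3 were 24.7% in shYY1 cells and 32.6% in control cells. All these lists are short, and no difference was tested.

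Summits, the points of highest signal in a peak, were placed relative to the annotated start where it was known. H3K4me3 summits at mitochondrial ribosomal protein genes lay at medians of 37.5, 18 and 20 bp after the start. YY1 summits lay at medians of -8, -9 and -67 bp, a negative sign meaning upstream, against -52, -36.5 and -64 bp over genes with H3K4me3. In the first 2 libraries 52.8% and 52.5% of the YY1 summits were upstream, against 65.9% and 60.7% of the background, and in the third 60.9% against 63.8%. YY1 summits at these genes were thus spread to both sides of the start more evenly than in the background in libraries 1 and 2, and the shorter list of library 3, with 23 summits, differed by less.

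SMC3 summits lay upstream more often. Their medians were -73, -136 and -79 bp in shYY1 cells, with 12 to 14 genes a library, against -80, -100.5 and -144 bp in control cells, with 7 to 17. The background medians were -84, -86 and -88 bp in shYY1 cells and -77, -77 and -102 bp in control cells. Between 76.9% and 83.3% of the summits were upstream in shYY1 libraries and between 70.6% and 87.5% in control libraries. Over genes with H3K4me3 it was 72.8% to 75.4% and 71.4% to 75.2%, so SMC3 summits lay mostly upstream there too. The first control library was below its background, at 70.6% against 71.4%, and the others were above theirs, on few genes each. Summits were also compared within the same gene. Genes were taken with both summits within 1000 bp of the start in any library, a looser rule than that of 2 libraries. Over the 19 such genes, SMC3 summits of shYY1 cells had a median of -68 bp and YY1 summits of control cells -50 bp. Over 22 genes taken in the same way, SMC3 summits of control cells had a median of -85 bp and YY1 summits -53 bp. The median offset of SMC3 from YY1 was -0.5 bp in shYY1 cells, between -201 and 184.5 bp, with 15 of 19 genes within 100 bp. It was -2.75 bp in control cells, between -87 and 367 bp, with 19 of 22 genes within 100 bp. At most of these genes, then, the SMC3 and YY1 summits lay within 100 bp of each other. No share over all genes with both peaks is given, so this is not shown to be particular to them.

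**Figure D4:**
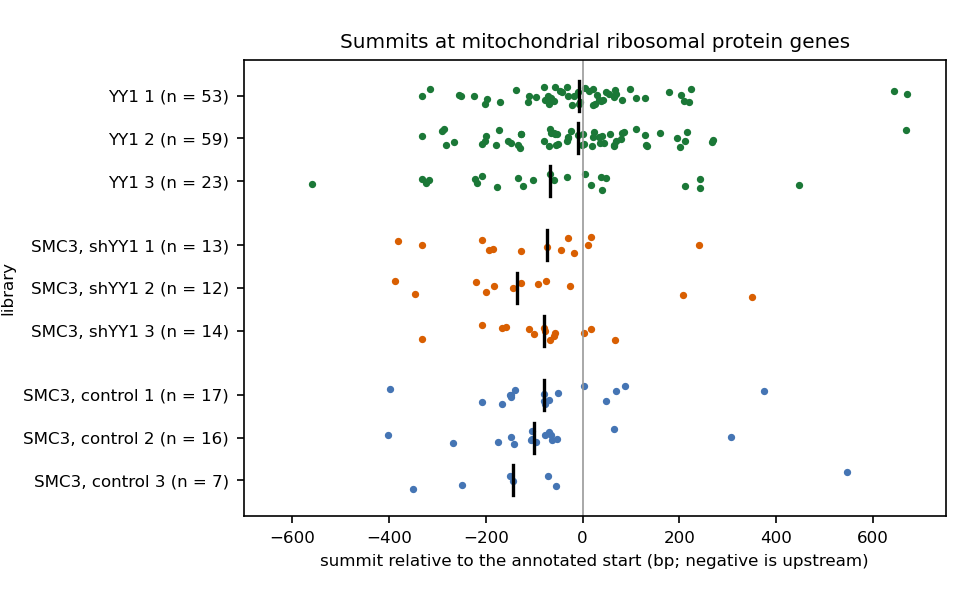
Distance of peak summits from the annotated start (bp, negative is upstream) at mitochondrial ribosomal protein genes, for each YY1 and SMC3 library; points are genes, black bars medians, and heights within a row carry no meaning. YY1 summits of libraries 1 and 2 centre at -8 and -9 bp, and the SMC3 medians lie between -144 and -73 bp.

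Many of these promoters are shared with a gene running the other way. A divergent start within 1000 bp was found at 23 of 68 mitochondrial ribosomal protein genes (33.8%), against 1419 of 9469 genes with H3K4me3 (15%). Among those with YY1 it was 20 of 52 (38.5%), against 18.8% of the background with YY1. Among those without YY1 it was 3 of 16 (18.8%), against 7.68%. Of the genes with SMC3 in at least 2 libraries, 6 of 12 (50%) had a divergent start in shYY1 cells and 6 of 14 (42.9%) in control cells, against 19.9% and 19.7%.

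Several partners also serve the mitochondrion. Mrpl46 and Mrps11, of the large and the small particle, start 42 bp apart and so share their peaks. Mrps12 starts 147 bp from Sars2, the mitochondrial seryl-tRNA synthetase. Mrpl43 starts 116 bp from Twnk, the helicase of mitochondrial DNA, and Mrpl47 starts 308 bp from Ndufb5, a subunit of respiratory complex I. Others do not, such as Tcp1, a cytosolic chaperonin subunit, whose start lies 238 bp from that of Mrpl18. A peak between such starts counts for both genes and cannot be given to either. Among regions called in at least 2 libraries, another gene's end was nearer to the summit at 4 of 15 genes for SMC3 in shYY1 cells, at 6 of 17 for SMC3 in control cells and at 17 of 58 for YY1. These counts limit which gene a peak can be given to, and no share over all genes stands beside them.

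A few SMC3 calls lay away from the annotated start. At Mrps27, a small-subunit protein of the pentatricopeptide repeat family, the SMC3 region in shYY1 cells lay at the start, chr13:99344590-99344821, in 2 libraries. In control cells the region called in 2 libraries lay inside the gene, 8489 bp from the start, at chr13:99353183-99353373, and no SMC3 peak was called at the start. The inner region was also called in 1 shYY1 library. Counting whole genes hides this, since Mrps27 had SMC3 in 2 libraries of each arm. At Mrpl48 the SMC3 calls lay deep inside the gene, 17228 bp from its upper end in control cells and 341 bp after an annotated alternative start, in 1 shYY1 and 2 control libraries.

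The letters of the promoter windows were then searched on both strands. A gene can have several annotated starts, and it was counted when any of its windows held a match. Genes with more starts had more chances of a match, and the counts were not corrected for this. The YY1 motif AANATGGC was present at 21 of 68 mitochondrial ribosomal protein genes (30.9%). It was present at 985 of 9469 genes with H3K4me3 (10.4%) and at 7.46% of all protein-coding genes with a window. With YY1 in at least 2 libraries the share was 18 of 52 (34.6%), against 13% of the background with YY1. Without YY1 it was 3 of 16 (18.8%), against 5.36%. By the number of YY1 libraries, the motif was held by 1 of 7 mitochondrial ribosomal protein genes with 0 (14.3%), 2 of 9 with 1 (22.2%), 8 of 28 with 2 (28.6%) and 10 of 24 with 3 (41.7%). The background shares were 3.87%, 7.74%, 9.91% and 15.8%. The lower 2 steps rest on 1 and 2 genes with a match, so the order among mitochondrial ribosomal protein genes is given as a description.

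The matches had a preferred place. All 16 matches on the sense strand began between 7 and 37 bp after the annotated start, at a median of 19. All 8 on the antisense strand lay before it. The windows end 50 bases after the start, so matches further on could not be seen. A sense match after the start was found at 16 of 68 genes (23.5%), against 3.88% of genes with H3K4me3. A YY1 peak covered 12 of these 16 matches in at least 2 libraries, and 0 of the 16 were covered in no library. Only 3 of the 16, at Mrpl18, Mrpl47 and Mrps18a, were covered in all 3 libraries. For comparison, 75.3% of all 77 genes had YY1 in at least 2 libraries, anywhere in the gene or within 2500 bp. Coverage of the same stretch in windows without a match is not given, so these counts do not set the matches apart. The match and the nearest YY1 summit lay a median of 139.5 bp apart over 36 pairs of site and library, so a covering peak does not place its summit on the match. Printed below are the sites of the 7 genes with YY1 in all 3 libraries and of Mrpl37 and Mrps30, with YY1 in a single library. These library numbers count a YY1 peak anywhere in the gene or within 2500 bp, not at the site itself. Each site has 10 bases on either side, with the motif in capitals.
Mrpl18 (chr17:12916068-12916095, strand minus): acccacagttAACATGGCtgcgactagt
Mrpl47 (chr3:32736725-32736752, strand minus): ctccattagaAACATGGCtgcgaccagt
Mrpl51 (chr6:125192208-125192235, strand plus): ggtaaggcccAAAATGGCtcctcttact
Mrpl58 (chr11:115403762-115403789, strand plus): ctgggaggtgAACATGGCgaccgcctgg
Mrps18a (chr17:46111005-46111032, strand plus): ggtgcgttccAAGATGGCggccctcagg
Mrps27 (chr13:99344790-99344817, strand plus): ggtgcgctccAAGATGGCggctcccatg
Mrps7 (chr11:115604148-115604175, strand plus): gacagcggccAAGATGGCtgcccccgcg
Mrpl37 (chr4:107066823-107066850, strand minus): tgcacgggcaAAGATGGCggcgtccagg
Mrps30 (chr13:118387220-118387247, strand minus): gcggcgggcgAAAATGGCggcggccagg

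These 9 sites share ATGGC and differ at the free base before it and in the bases around. The letters ATGGC also read as a start codon followed by the first bases of an alanine codon, and coding starts were not analysed here, so a match just after the start may be coding sequence, a YY1 site or both. The shorter core ATGGC alone was found on the sense strand after the start at 27 of 68 genes (39.7%), against 11% of genes with H3K4me3. Set against the genes with that core in that place, those with the full motif there were 16 of 27 mitochondrial ribosomal protein genes (59.3%). In the background they were 367 of 1038 (35.4%). A match is a description of letters, and whether YY1 binds them was not tested.

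**Figure D5:**
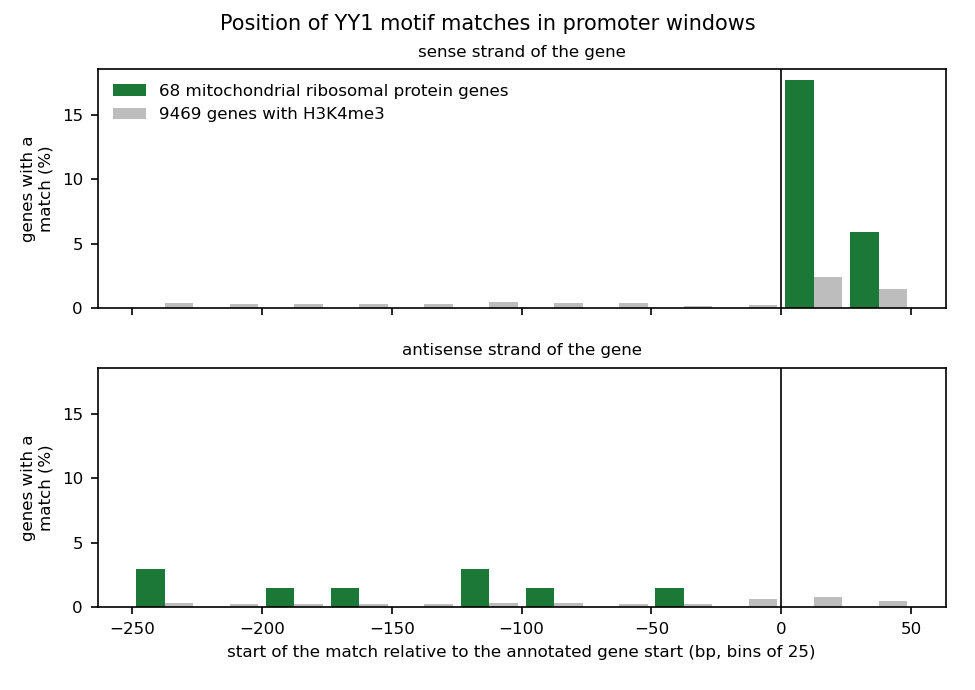
Percent of genes with the YY1 motif AANATGGC in a promoter window, by match start relative to the annotated gene start (bp, bins of 25). The sense strand (top) and antisense strand (bottom) are shown for 68 mitochondrial ribosomal protein genes (green) and 9469 genes with H3K4me3 (grey). The green bars on the sense strand stand in the bins after the start alone, and those on the antisense strand before it alone.

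Motifs of the other factors were more frequent than in the background as well. The NRF1 motif was present at 13 of 68 genes (19.1%), against 12.1% of genes with H3K4me3. The ETS motif CCGGAAG, the form bound by GABP among others, was present in 25 of 68 (36.8%), against 21%. Genes with and without SMC3 were set side by side. The NRF1 motif was held by 9 of 27 genes with SMC3 in any library (33.3%) and by 4 of 41 with SMC3 in 0 of 6 (9.76%), where the background had 13.7% and 10.6%. The ETS motif was held by 14 of 27 (51.9%) and 11 of 41 (26.8%), where the background had 21.9% and 20.1%. The YY1 motif ran the other way, with 5 of 27 (18.5%) at genes with SMC3 and 16 of 41 (39%) at genes without it, where the background had 10.5% and 10.3%. These counts rest on few genes and were not tested.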

How the data were processed

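CUT&Tag peak lists of 12 of 15 libraries were used, 3 each for shYY1 SMC3 and for H3K4me3, YY1 and SMC3 of control cells. The deposited files give the start, end and summit offset of each peak in bp, with no score, height or read count, so a peak's presence, length and position are the values the authors deposited. The submitters' processing notes list MACS2 2.2.9.1, Bowtie2 2.5.1, cutadapt 4.5 and Picard 3.1.1 and the build mm10. The sources used here give neither their settings nor the peak threshold, nor whether IgG served as background. Each list skips 49 to 99 of its running peak numbers, so some peaks had been removed before deposit. Peaks were called per library. Nothing in the lists shows the depth, and list length moves with depth as well as with occupancy.

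Each peak was assigned to every protein-coding gene that it overlapped within 2500 bp of its span. A target was called at a gene with a peak in at least 2 of 3 libraries. Genes came from RefSeq tables of GRCm38.p6. Strand and starts came from the RefSeq promoter table, which held 68 of the 77 genes. Summits within 1000 bp of the nearest annotated start were placed relative to it. Group means and peak lengths were compared with exact two-sided permutation tests, Benjamini-Hochberg adjusted over all genes with SMC3 in all 6 libraries. Motifs were searched as exact letters on both strands, and overlaps between the ATGGC and AANATGGC matches are expected by construction. Python 3.11.15, numpy 2.4.6, pandas 2.3.3, scipy 1.17.1 and matplotlib 3.10.9 were used. The assignment and the distances were tested on simulated data.

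Genes named with their values are those called in all 12 libraries, those whose SMC3 libraries differ by 2 or more between the arms, the first 8 by mean YY1 length with YY1 in 3 and SMC3 in 0 libraries, and those with no YY1. Mrps9, Mrps36, Mrpl30, Mrps27, Mrpl48, Mrpl33, Mrps34 and the divergent pairs and motif sites shown were chosen after their values were seen. The genes, lists and motifs were chosen with earlier results of these data known. The translation factor Mtrfr was not found in the gene table. Alternatives were a window of 1000 bp, summits in place of any base, longer peaks, 3 of 3 libraries, lists of equal length, leaving out libraries, a replicate block and other motifs.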

Additional observations from a re-analysis of the deposited data

How the results depend on the processing

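Under other settings 87 recomputed values stayed within 1.5 times the count, or 1 SD of the value, given in the report, and 17 moved further or changed sign. YY1 was called at 58 genes, and at 33 with the longer peaks of each list, at 29 with 3 of 3 libraries and at 29 to 58 leaving out 1 library. SMC3 in shYY1 cells was called at 15 genes, and at 6 with the longer peaks, 10 with 3 of 3 libraries and 11 to 13 leaving out 1 library. SMC3 in control cells was called at 17 genes, and at 7 with the longer peaks, 7 with 3 of 3 libraries and 7 to 17 leaving out 1 library. The difference of -2 genes per library between shYY1 and control cells became 1.33 with the 2061 longest peaks of each list and 1.5 without the 2 libraries whose descriptions name Abcam, and ran between -6.83 and 1.17 leaving out 1 library. Without the third control library 2 genes (Mrpl39 and Mrpl58) had SMC3 in every control and no shYY1 library, and the range leaving out 1 library was 0 to 2. Without the first control library 1 gene (Mrpl32) showed the reverse, with a range of 0 to 1. SMC3 peaks shorter in every shYY1 library appeared at 3 of 9 genes without the third control library (Mrpl17, Mrpl38 and Mrps26), with a range of 0 to 3. No share over all genes was computed with a library left out, so these counts are not shown to be particular to these genes. Fewer libraries in an arm also make a full separation easier. The causes of these shifts were not tested. The YY1 motif was held by 21 genes, by 41 with the shorter ATGGC and by 5 with a longer YY1 motif. The longer motif and a window around annotated starts, which gave YY1 at 51 genes and SMC3 at 12 in each arm, were chosen after seeing the data.

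In each window and peak setting tried, the YY1 share of the mitochondrial ribosomal protein genes lay above that of genes with H3K4me3 and both SMC3 shares below it, with the least lead for YY1 among the longer peaks, 45.3% against 44.1%. Same-numbered SMC3 libraries did not deviate together, with correlations of -0.0130, 0.0105 and -0.0451 over 5773 genes, so the numbers were not taken to pair libraries. A replicate block left the difference at -2 and, over all genes, gave an exact sign-flip p of 0.5, where 0.25 is the smallest possible. The comparison over all genes kept its direction, between -1508 and -292 leaving out 1 library and -47 with lists of equal length. A stricter threshold by score was not run, since the lists hold none. Depth, unknown here, limits every count of calls, and groups of 3 libraries allow no p under 0.1.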
